A study of Mus musculus with 1 sample.

Results

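The nucleosome remodelling and deacetylase (NuRD) complex was followed here through 10 of its subunit genes, which were chosen by symbol among 27998 listed genes. They were the remodellers Chd3 and Chd4, the deacetylases Hdac1 and Hdac2, the histone chaperones Rbbp4 and Rbbp7, the scaffolds Mta1, Mta2 and Mta3, and Mbd3. The question was which paralog of each subunit the germ cell stages and the somatic cells of the testis used. Transcripts were counted in 1 droplet library of wild-type C57BL/6 mice at postnatal day 8, the controls of a study of Zscan2 loss. Cells of 3 mice were combined in equal numbers after enrichment with beads against THY1, a surface protein of spermatogonia, and unselected testis cells had been added back. The mouse of origin of each cell is not given, so the library is 1 sample, and none of the differences below has a replicate check or a p-value. Cells lost by selection and cells added back set the number of cells of each class, so those numbers say nothing of the testis itself.

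NuRD joins 2 enzymatic activities in one particle: a CHD ATPase slides nucleosomes, and the class I deacetylases HDAC1 and HDAC2 remove acetyl groups from histone tails. MTA proteins form the scaffold that holds the deacetylases, RBBP4 and RBBP7 bind histones, and MBD3 or its alternative MBD2 links the deacetylase part to the remodeller part. A particle takes a CHD ATPase such as CHD3 or CHD4 and draws on paralogs at most other positions. Cell types can thus build different versions of it. Chd5 was read only among the other NuRD subunits, and the CHD shares below are of Chd3 and Chd4 alone. In the testis CHD4 is known as a protein that spermatogonial stem cells (SSCs) need for their maintenance, while HDAC1, HDAC2, RBBP4 and RBBP7 also serve in other complexes such as SIN3.

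The library held 970 barcodes with 2655 to 44915 unique molecular identifiers (UMIs, 1 per captured transcript), and 920 cells were kept. By markers, 324 were germ cells. The SSC-like cells numbered 112, those like progenitors 79 and those like differentiating spermatogonia 133. The 596 somatic cells comprised 35 like macrophages, 94 like peritubular myoid cells (the contractile cells around the tubules), 186 like stromal cells, 255 like Sertoli cells (the cells that nurse the germ line) and 26 like T cells. The SSC-like cluster was led by Ccnd2 and Nefm and the progenitor-like cluster by Rpl22l1 and Sdc4, with none of the stage markers among the 10 leading genes of either, and the border between them moved with the clustering settings. Median UMIs per cell ranged from 5961 in T cell-like to 22293 in SSC-like cells. The 6 germ cell markers summed to 1349.9 UMIs per 1000000 (CPM) in germ cells and 31.7 CPM in somatic cells. The T cell-like cells also carried 1690.5 CPM of Acta2, a smooth muscle gene. Their peritubular myoid markers summed to 2484.2 CPM and their endothelial markers to 587.7 CPM, against 1320.9 CPM for their T cell markers. This cluster thus held markers of more than 1 cell type and is given for completeness. Red blood cell markers summed to 7115.8 CPM in progenitor-like cells, against 95.7 and 101.0 CPM in the SSC- and differentiating-like cells. Without the barcode with the most Hba-a1 UMIs, no level ratio and no paralog shift of the NuRD genes moved out of its interval. Levels below are UMIs of a gene summed over the cells of a class, as CPM of all UMIs of that class, and brackets hold exact 95% intervals that cover counting error only. Dazl, a germ cell gene at 791.5 CPM in germ cells, was at 14.7 CPM in somatic cells, and Dcn, a fibroblast gene at 1202.1 CPM in somatic cells, was at 14.6 CPM in germ cells. Genes far more abundant where they are expressed than any MTA gene were thus counted at about these levels in other cells. Between somatic classes Dazl ran from 5.40 CPM in peritubular myoid-like to 66.7 CPM in T cell-like cells. Whether such UMIs came from free RNA was not tested. Mta3 in stromal-like, peritubular myoid-like and macrophage-like cells and Mta1 in macrophage-like cells, at 9.69 to 19.4 CPM, and Mta1 in SSC-like cells, at 20.04 CPM, were no higher than Dcn in differentiating-like cells, at 20.4 CPM. The part of free RNA in them was not tested.

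Reads of this assay come from transcript ends, so the level of one gene against another also reflects how each is captured. The share of a paralog among the UMIs of its family was therefore compared between classes. Capture cancels where a paralog ratio is divided by that of another class, provided that each gene is captured alike in both classes. Whether the classes used the same transcript ends was not tested. In a share itself or in a sum over genes capture does not cancel. On GRCm38, Chd3 lies at chr11:69343273-69369406 on the minus strand and Chd4 at chr6:125095981-125130591 on the plus strand. Rbbp7 lies at chrX:162760402-162779092 (plus) and overlaps Txlng on the opposite strand. Rbbp4, at chr4:129307100-129335370 (minus), overlaps Sync and Gm26722 on the opposite strand. Whether the counting used the strand is not given in the sources used here. Txlng stood at 22.3 CPM in germ and 10.5 CPM in somatic cells, and Sync and Gm26722 at most at 5.40 and 9.45 CPM in any class. Of the 50-base stretches in the last 500 bases of Rbbp7 transcripts, 8.71% also occur in Gm6382, which the count table does not list.

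Promoter sequences, from 250 bases before to 50 bases after the RefSeq start on GRCm38.p6, were matched for 7 of the 10 genes and not for Chd3, Mta3 and Hdac1. Those of Chd4, Rbbp4 and Rbbp7 are shown because the results on the CHD and RBBP pairs turn on these genes. Chd4 had 2 starts in the table, of which the upstream one is given. Capitals mark GGGCGG, the core of a GC box, and CCAAT, each on either strand (CCGCCC and ATTGG on the other), with no overlap between the 2 motifs. They are at chr6:125095731-125096030 (plus), chr4:129335321-129335620 (minus) and chrX:162760122-162760421 (plus).
Chd4: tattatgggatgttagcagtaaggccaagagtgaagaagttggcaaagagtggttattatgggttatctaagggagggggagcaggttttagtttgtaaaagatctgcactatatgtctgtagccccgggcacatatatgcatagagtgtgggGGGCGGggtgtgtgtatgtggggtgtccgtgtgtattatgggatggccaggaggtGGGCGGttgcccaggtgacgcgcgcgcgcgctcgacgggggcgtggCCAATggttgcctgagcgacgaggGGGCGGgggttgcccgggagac
Rbbp4: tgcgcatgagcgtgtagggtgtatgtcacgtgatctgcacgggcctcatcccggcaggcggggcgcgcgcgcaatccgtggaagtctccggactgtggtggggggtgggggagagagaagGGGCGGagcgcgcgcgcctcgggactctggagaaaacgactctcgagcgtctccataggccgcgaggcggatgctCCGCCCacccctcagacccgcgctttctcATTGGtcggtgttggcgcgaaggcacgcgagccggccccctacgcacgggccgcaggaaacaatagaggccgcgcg
Rbbp7: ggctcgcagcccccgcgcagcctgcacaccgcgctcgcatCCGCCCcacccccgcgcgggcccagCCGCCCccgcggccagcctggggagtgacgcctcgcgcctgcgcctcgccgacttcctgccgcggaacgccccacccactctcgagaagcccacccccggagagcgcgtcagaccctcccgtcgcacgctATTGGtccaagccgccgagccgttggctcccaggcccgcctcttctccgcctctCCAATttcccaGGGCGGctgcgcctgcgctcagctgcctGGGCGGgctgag
GGGCGG occurred in 35.7% and CCAAT in 37.4% of 32851 promoters of the same length. All 3 sequences held both motifs, with 3 GC boxes for Chd4, 2 for Rbbp4 and 4 for Rbbp7. The Chd4, Rbbp4 and Rbbp7 windows held 17, 39 and 38 CpG dinucleotides, against a median of 7 over all promoters. No accessibility or binding was measured, so these letters are a description only.

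Chd4, the main remodelling ATPase of the complex, was highest in SSC-like cells and lower at each later germ cell stage. Its levels in the SSC-, progenitor- and differentiating-like cells were 506 CPM (478 to 535), 393 CPM (361 to 426) and 328 CPM (301 to 356). In the somatic classes it was highest in Sertoli-like cells, at 245 CPM (225 to 266). Peritubular myoid-like cells were lowest at 108 CPM (85.7 to 135), below stromal-like cells at 120.0 CPM (104 to 138), macrophage-like cells at 128 CPM (98.9 to 163) and T cell-like cells at 145 CPM (93.2 to 216). Each of the first 4 classes exceeded the next beyond counting error, while the last 4 could not be ordered. Without cells under 5000 UMIs, however, progenitor-like and differentiating-like cells no longer differed in Chd4 (log2 ratio -0.02, against 0.26). The same held with no mitochondrial limit (0.08, -0.10 to 0.26). An SSC-like cell carried a median of 10 Chd4 UMIs and at most 30, a Sertoli-like cell a median of 2. Depth differs between these cells. Cells under 5000 UMIs were therefore left out and every other cell was thinned to 5000 UMIs. Those left out included 36 of the 133 differentiating-like cells, 35 of them in the cluster of 101 cells led by Stra8. A Chd4 UMI was then held by 81.8% of 110, 84.7% of 72 and 69.1% of 97 cells of the 3 germ cell stages in the same order. It was held by 72.8% of 235 Sertoli-like and 43.6% of 172 stromal-like cells. In all cells before thinning the shares were 93.8%, 96.2%, 83.5%, 81.2% and 58.1%. Dazl, which somatic cells should lack, had a UMI in 12.1% of them. In these thinned shares progenitor-like cells were not below SSC-like cells, unlike in the summed level, and their intervals overlapped (73.3% to 88.5% and 74.3% to 92.1%).

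Chd3, the paralog that can take the place of CHD4 in the complex, had another order. It was highest in Sertoli-like cells at 252 CPM (232 to 273), followed by peritubular myoid-like cells at 176 CPM (147 to 209) and stromal-like cells at 143 CPM (125 to 162). Along the 3 germ cell stages it was 86.3 CPM (75.04 to 98.8), 113 CPM (96.7 to 132) and 122 CPM (106 to 140.0), lowest in SSC-like cells. T cell-like cells were at 109 CPM and macrophage-like cells at 23.3 CPM, from 12 UMIs. Only the steps from Sertoli-like cells to the second class and from SSC-like cells to macrophage-like cells passed counting error between neighbours in this order. The plot of levels by class shows opposite slopes of the 2 genes in CPM over the germ cell stages. For Chd3 the last step was within counting error (log2 ratio 0.11, -0.20 to 0.41). After thinning, a Chd3 UMI was held by 36.4%, 38.9% and 41.2% of cells along the stages, with intervals that overlapped. Its mean UMIs per cell were 1.88, 2.08 and 1.53, lowest in differentiating-like cells, so the rise was seen in CPM only. At a germ cell clustering resolution of 1.2, however, Chd3 did not differ between SSC-like and progenitor-like cells (log2 ratio 0.001, -0.34 to 0.34).

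**Figure D1:**
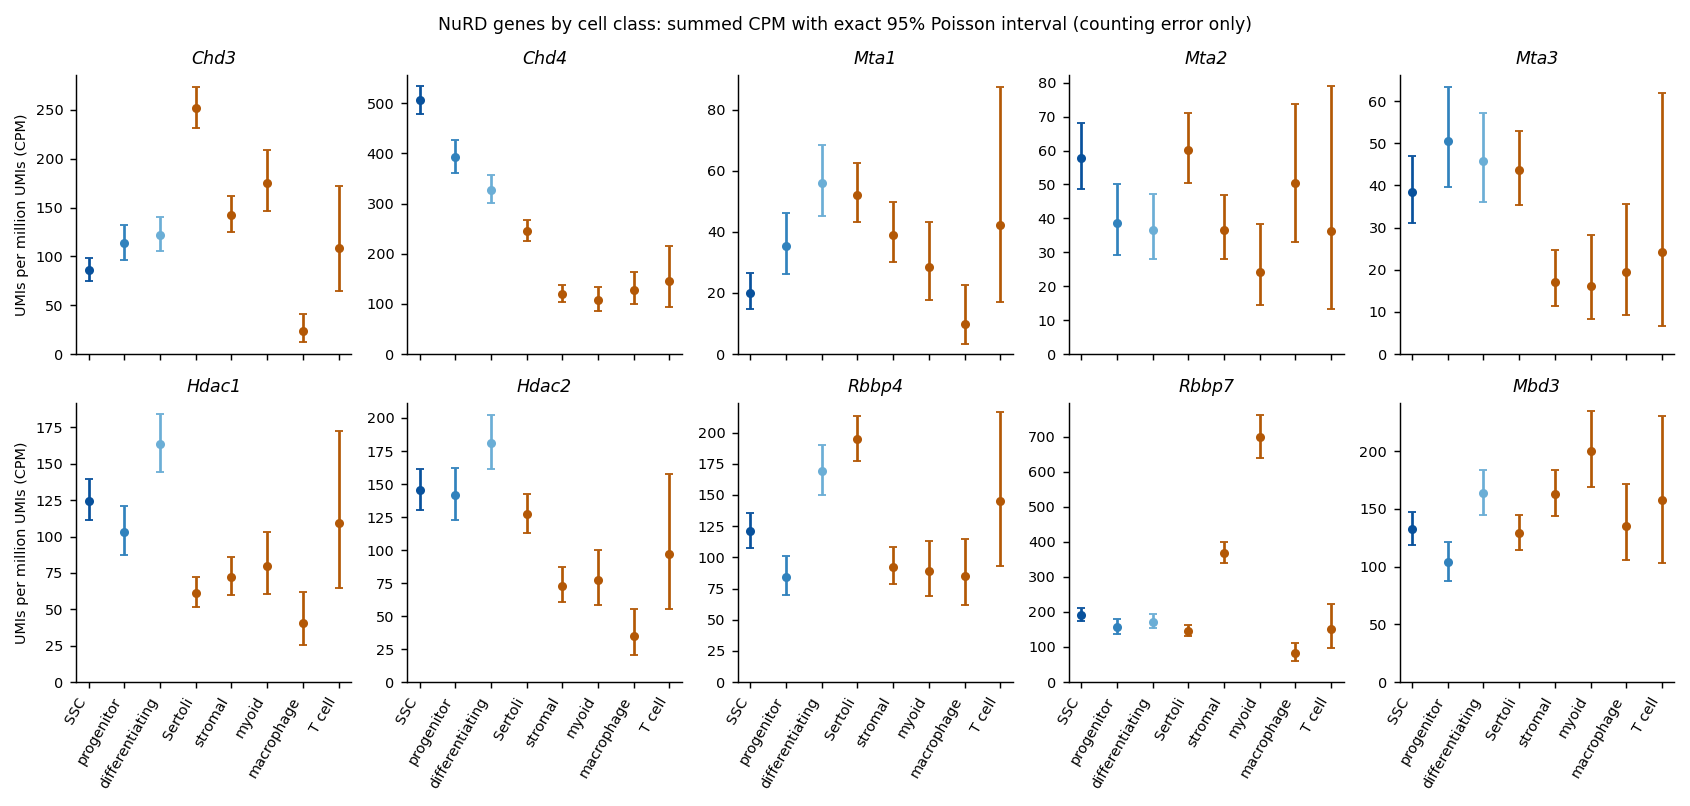
Summed UMIs per 1000000 (CPM, linear axis from 0, one scale per gene) of the 10 NuRD genes in 8 cell classes, with germ cell classes in blue, somatic classes in brown and exact 95% Poisson intervals as bars. Chd4 falls from 506 CPM in SSC-like cells to 328 CPM in differentiating-like cells, and Rbbp7 stands out in peritubular myoid-like (699.6 CPM) and stromal-like cells (369 CPM).

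Set against each other, the CHD genes had a larger shift between germ and somatic cells than the other pairs, except under a mitochondrial limit of 5%, where the log2 shift was 1.43 and that of Rbbp7 against Rbbp4 was -1.52. Chd4 supplied 80.3% (78.8% to 81.7%) of the 2928 CHD UMIs of germ cells and 48.9% (46.6% to 51.2%) of the 1902 of somatic cells. The ratio of Chd4 to Chd3 was therefore 4.25 times as high in germ cells (3.73 to 4.84; log2 2.09). Along the SSC-, progenitor- and differentiating-like cells the Chd4 share was 85.4% (83.5% to 87.2%), 77.6% (74.4% to 80.6%) and 72.9% (69.5% to 76.0%). The SSC-like ratio was 1.69 times the progenitor-like ratio (1.34 to 2.14) and 2.18 times the differentiating-like ratio (1.75 to 2.73). The step from progenitor-like to differentiating-like cells was small, at 1.29 times (1.01 to 1.65; log2 0.37), and its log2 value was 0.03 without cells under 5000 UMIs. Differentiating-like cells comprised a cluster of 101 cells led by Stra8, the retinoic acid response gene, and a cluster of 32 cells led by the homeobox gene Esx1. The Chd4 share was 75.9% in the first and 62.2% in the second, a ratio shift of 1.91 times (1.30 to 2.80), so the lowest germ cell share lay in the cells led by Esx1.

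In the Sertoli-, stromal- and peritubular myoid-like cells the Chd4 share was 49.3%, 45.7% and 38.1%. Macrophage-like cells, with 84.6% (74.7% to 91.8%) of 78 UMIs, had a share that did not differ from that of germ cells beyond counting error, with both Chd3 and Chd4 at lower levels than in germ cells. T cell-like cells were at 57.1% of 42 UMIs (41.0% to 72.3%). Among the 3 Sertoli-like clusters, the share was 57.1% (50.6% to 63.5%) in the cluster of 45 cells rich in proliferation genes and 48.1% and 45.9% in the other two. After thinning, 48.9% of Sertoli-like cells held UMIs of both genes, against 30.9% of SSC-like cells, of which 50.9% held Chd4 alone and 5.45% Chd3 alone. In peritubular myoid-like cells 32.2% held Chd3 alone and 10.0% Chd4 alone.

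**Figure D2:**
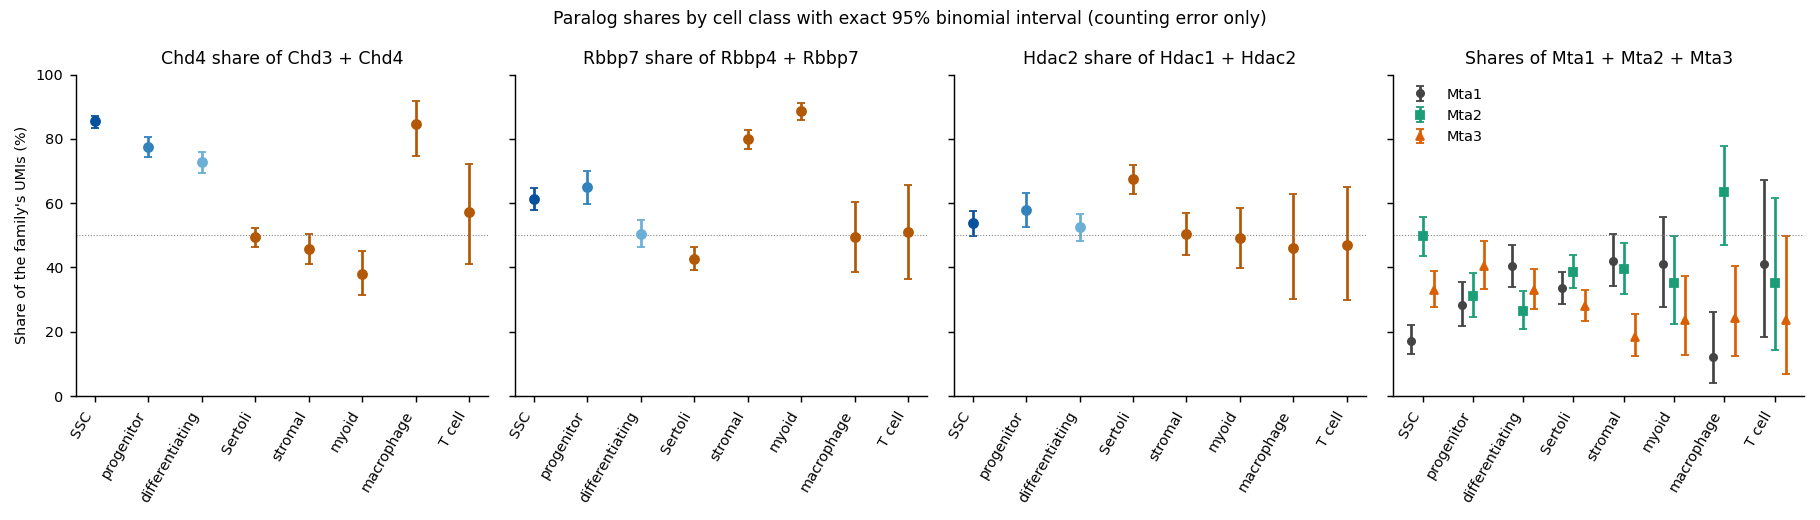
Share (%) of each paralog among the UMIs of its family in 8 cell classes, with exact 95% binomial intervals, germ cell classes in blue and somatic classes in brown in the first 3 panels. The Chd4 share is 85.4% in SSC-like and 38.1% in peritubular myoid-like cells, the Rbbp7 share is 42.8% in Sertoli-like and 88.7% in peritubular myoid-like cells, and the Mta1 share among germ cells is 17.3%, 28.3% and 40.4%.

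The deacetylases were both higher in germ cells than in somatic cells. Hdac1 was at 131 CPM in germ cells and 66.4 CPM in somatic cells (log2 ratio 0.98, 0.79 to 1.16), and Hdac2 at 155 and 93.9 CPM (log2 ratio 0.72, 0.56 to 0.89). Both were highest in differentiating-like cells, at 163.5 CPM (145 to 184) for Hdac1 and 181 CPM (161 to 203) for Hdac2, which exceeded the class next in order beyond counting error. SSC-like cells followed with 125 and 145 CPM, and progenitor-like cells had 103 and 142 CPM. Taken as mean UMIs per cell, however, SSC-like cells were above differentiating-like cells in both genes (log2 ratios 0.41 and 0.49). Both genes were lowest in macrophage-like cells, at 40.7 and 34.9 CPM. Unlike the CHD pair, this pair kept about the same balance in germ cells. Hdac2 supplied 53.8%, 57.9% and 52.5% of the pair's UMIs along the 3 stages, and the intervals of all 3 ratio shifts between these stages included no difference. Sertoli-like cells stood apart with an Hdac2 share of 67.6% (63.0% to 72.0%), with Hdac1 at 61.0 CPM and Hdac2 at 127 CPM. Their Hdac2 to Hdac1 ratio was 1.76 times that of germ cells (1.40 to 2.22).

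The histone chaperones differed strongly among the somatic classes. Rbbp7 was at 699.6 CPM (641 to 763) in peritubular myoid-like and 369 CPM (340.3 to 399.7) in stromal-like cells. Germ cells had 192, 157 and 173 CPM along the 3 stages. T cell-like, Sertoli-like and macrophage-like cells had 151, 145.5 and 83.3 CPM. The first 2 classes exceeded every class after them beyond counting error, and the next 5 could not be ordered among neighbours. Rbbp4 was highest in Sertoli-like cells at 195 CPM (177 to 214) and differentiating-like cells at 169 CPM (149.7 to 190), and stood at 121 CPM in SSC-like cells and 84.4 CPM (70.1 to 101) in progenitor-like cells. The Rbbp7 share of the pair was 42.8% (39.3% to 46.3%) in Sertoli-like cells, 79.9% in stromal-like cells and 88.7% (85.9% to 91.2%) in peritubular myoid-like cells. The ratio in peritubular myoid-like cells was 10.5 times that of Sertoli-like cells (7.78 to 14.3). Germ cells lay between them at 58.4%, and the share changed within the germ line, from 61.3% and then 65.0% to 50.5% (46.3% to 54.7%) at the last stage. The SSC-like ratio was 1.55 times the differentiating-like ratio (1.24 to 1.94).

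A contrast of germ with all somatic cells therefore mixes unlike classes for Rbbp7. The gene was lower in germ cells, at 177 CPM against 285 CPM (log2 ratio -0.69), but without stromal-like and peritubular myoid-like cells it was higher (log2 ratio 0.39). After thinning, 92.2% of peritubular myoid-like cells held an Rbbp7 UMI and 34.4% an Rbbp4 UMI, and in 58.9% Rbbp7 was the one found alone. In Sertoli-like cells Rbbp4 was found alone in 28.5% and Rbbp7 alone in 17.5%.

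**Figure D3:**
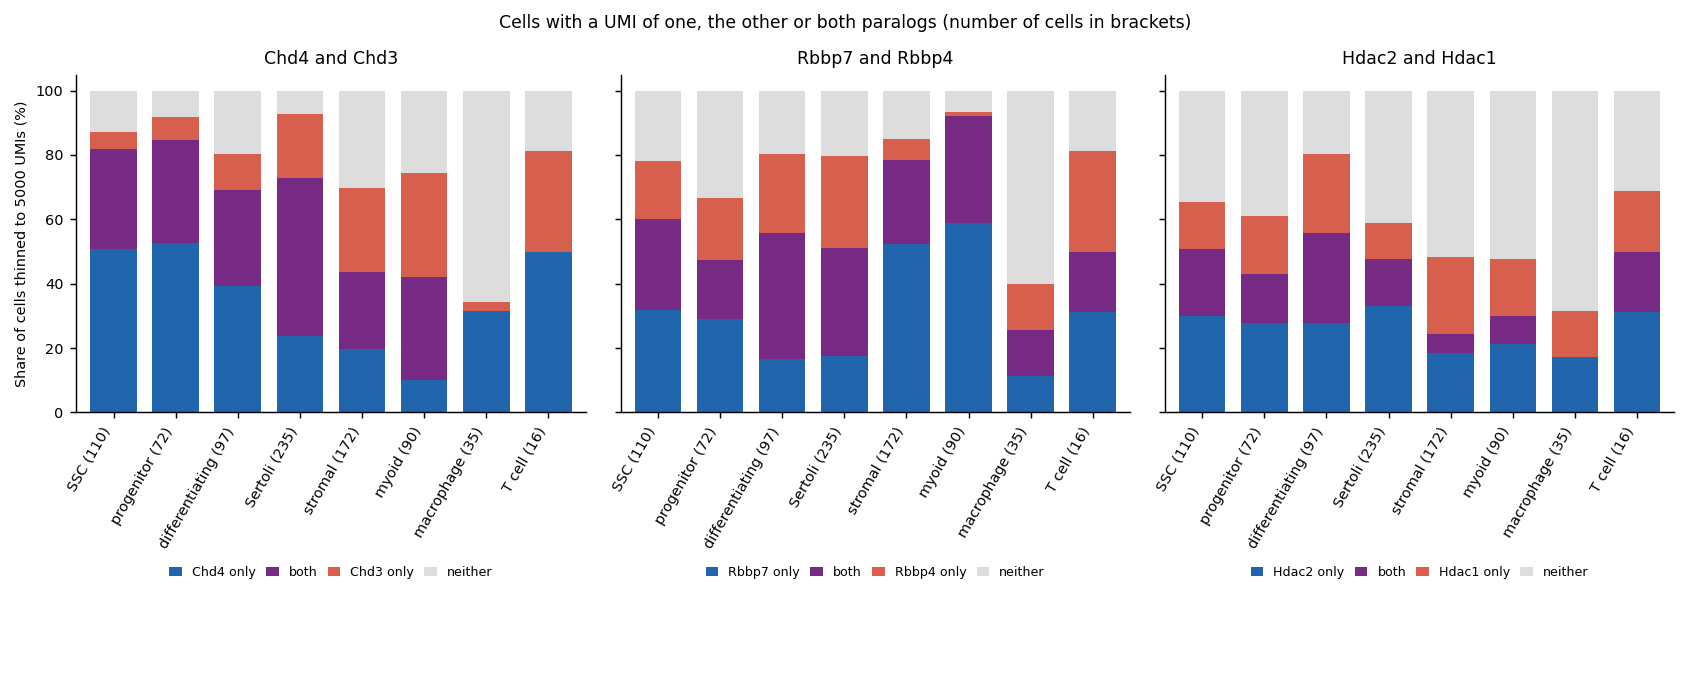
Share (%) of cells with a UMI of the first paralog only (blue), both (purple), the second only (red) or neither (grey) for 3 pairs. Each cell was thinned to 5000 UMIs and cells under 5000 UMIs were left out, with the number of cells of each class in brackets. Chd4 alone is found in 50.9% of SSC-like and 10.0% of peritubular myoid-like cells, and Rbbp7 alone in 58.9% of peritubular myoid-like and 17.5% of Sertoli-like cells.

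The MTA scaffolds were counted less often, with 694 UMIs in germ cells in all, and their shares changed along the germ cell stages. Along the SSC-, progenitor- and differentiating-like cells Mta1 was at 20.04 CPM (14.8 to 26.5), 35.3 CPM (26.3 to 46.4) and 55.9 CPM (45.1 to 68.5). Mta2 went the other way, at 57.7 CPM (48.5 to 68.0), 38.7 CPM (29.3 to 50.3) and 36.7 CPM (28.1 to 47.1). Mta3 was at 38.4, 50.5 and 45.7 CPM, with intervals that overlapped. The Mta1 share of the family was 17.3% (13.1% to 22.2%) in SSC-like and 40.4% (34.0% to 47.1%) in differentiating-like cells, while the Mta2 share was 49.7% (43.7% to 55.6%) and 26.5% (20.9% to 32.7%). The Mta1 to Mta2 ratio was 4.39 times as high in differentiating-like as in SSC-like cells (2.71 to 7.12), against the shift of 2.18 times for the CHD pair between the same stages. The cells led by Esx1 had the highest Mta1 share of the germ cells, with 33 of 66 UMIs (37.4% to 62.6%), but their Mta1 to Mta2 ratio did not differ beyond counting error from that of the cells led by Stra8 (fold 2.03, 0.91 to 4.67). Between germ and somatic cells the Mta1 to Mta2 ratio did not differ beyond counting error, with a fold of 0.85 (0.65 to 1.12).

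MBD3 is the subunit that joins the deacetylase and remodeller parts. Mbd3 ranged from 104 CPM (87.8 to 122) in progenitor-like cells to 199.9 CPM (169 to 235) in peritubular myoid-like cells. These 2 classes differed beyond counting error, but most neighbours in the order of Mbd3 did not. Mbd3 supplied 87.8% of the UMIs of Mbd3 and Mbd2 in germ cells and 89.4% in somatic cells. In differentiating-like cells the share was 92.8% (89.3% to 95.5%), and the ratio of Mbd3 to Mbd2 was 2.28 times that of SSC-like cells (1.32 to 4.06). This rests on 21 Mbd2 UMIs in differentiating-like and 57 in SSC-like cells. Shares as high were found in peritubular myoid-like (94.9%) and macrophage-like cells (93.3%).

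All 10 genes together took a similar part of the RNA in most classes, while the part taken by each family differed. They summed to 1424, 1220.4 and 1437 CPM along the 3 germ cell stages, to 1310.3, 1124 and 1498 CPM in Sertoli-, stromal- and peritubular myoid-like cells, and to 610.4 CPM in macrophage-like cells. Of these UMIs, the CHD genes made up 41.6% in SSC-like cells, 31.3% in differentiating-like cells and 18.9% in peritubular myoid-like cells. The RBBP genes made up 21.98%, 23.8% and 52.7% of them, and the HDAC genes 19.0%, 24.0% and 10.5%.

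Against all genes with at least 100 UMIs in the 2 groups, the members were called at a fold of 1.5. In germ over somatic cells 4 of 10 were higher (Chd4, Hdac1, Hdac2 and Mta3) where 35.1% of 9073 genes were higher. There 2 were lower (Chd3 and Rbbp7) where 31.6% were lower, so the counts were near the background. Without stromal-like and peritubular myoid-like cells, Hdac2 (log2 ratio 0.50, 0.32 to 0.69) and Mta3 (0.19, -0.14 to 0.53) no longer passed the fold. Sertoli-like cells had 43.6 CPM of Mta3. Taken as mean UMIs per cell, which follow the higher UMI counts of germ cells, the median of all genes moved to 1.05. The log2 ratios of Chd3 (0.13, -0.02 to 0.28) and Rbbp7 (0.24, 0.13 to 0.36) then turned positive but stayed under the fold. The median log2 ratio of the members was -0.06 and that of all genes 0.12. In SSC-like over progenitor-like cells no member was higher and 1 was lower (Mta1, log2 ratio -0.82, but 0.040 at a clustering resolution of 1.2), against 9.79% and 4.08% of 4802 genes. In SSC-like over differentiating-like cells 2 were higher and 1 was lower, against 10.1% and 14.2% of 5091 genes. The higher ones were Chd4 (log2 ratio 0.63, 0.48 to 0.78) and Mta2 (0.65, 0.21 to 1.11), both just past the fold, and the lower one was Mta1 (-1.48, -2.01 to -0.97). The 2 higher calls fell to 1 under 5 alternatives and to 0 under 2, with log2 ratios down to 0.57 for Chd4 and 0.48 for Mta2. In progenitor-like over differentiating-like cells none was higher and 4 were lower, against 10.2% and 23.9% of 4201 genes. These were Rbbp4 (log2 ratio -1.002), Hdac1 (-0.67), Mta1 (-0.66) and Mbd3 (-0.66), and the 4 calls fell to 2, 1 or 0 under 5 alternatives. The 3 germ cell comparisons share classes and are not independent of each other.

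**Figure D4:**
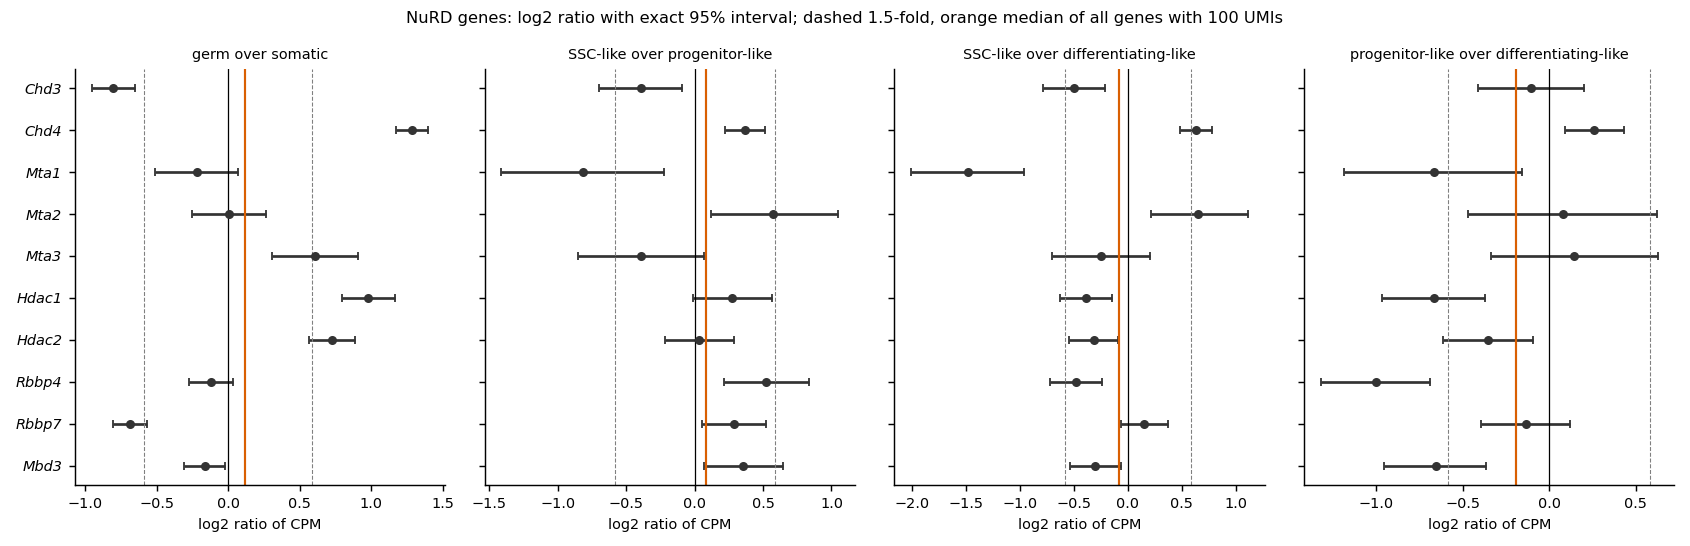
log2 ratio of CPM of the 10 NuRD genes in 4 comparisons with exact 95% intervals (each panel has its own axis, dashed lines mark a fold of 1.5 and the orange line the median of all genes with at least 100 UMIs). Chd4 is at 1.29 and Chd3 at -0.80 in germ over somatic cells, and Mta1 is at -1.48 in SSC-like over differentiating-like cells.

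Proliferation differed between these classes too. The 10 proliferation genes, among them Mki67 and Top2a, summed to 1355, 524 and 1396 CPM along the 3 germ cell stages, and to 494, 348 and 324 CPM in Sertoli-, stromal- and peritubular myoid-like cells. Rbbp4, Rbbp7, Hdac1, Hdac2 and Mbd3 likewise had their lowest germ cell level in progenitor-like cells. Chd4 and the Chd4 share did not follow that order. The steps of Hdac1 and Hdac2 from SSC-like cells and of Rbbp7 to differentiating-like cells were within counting error. The part of proliferation in these levels was not tested. Inside a class, cells with and without a UMI of Mki67 or Top2a can be set side by side, although the deeper cells are then more often in the first set. In Sertoli-like cells Rbbp7 was at 199.7 CPM in the 69 cells with and 119 CPM in the 186 cells without one, a ratio of 1.68 (1.34 to 2.09). The same ratio was 0.96 (0.81 to 1.14) in germ cells and 0.87 (0.69 to 1.09) in stromal-like cells. Rbbp4 was at 132 and 92.9 CPM in germ cells, a ratio of 1.43 (1.13 to 1.81). Rbbp7 against Rbbp4 was thus 1.41 times as high in such Sertoli-like cells (1.04 to 1.90). It was 0.67 times as high in germ cells (0.50 to 0.90) and 0.55 times as high in stromal-like cells (0.35 to 0.86). The germ cells, however, pool 3 stages, with 106, 36 and 104 cells in stage order with such a UMI and 6, 43 and 29 without. Within these stages the Rbbp4 ratio was 2.125 (0.90 to 6.59), 1.18 (0.81 to 1.72) and 0.87 (0.59 to 1.35). Rbbp7 against Rbbp4 was 0.39 (0.11 to 1.08), 0.75 (0.47 to 1.19) and 0.82 (0.46 to 1.45). No single stage thus showed either difference beyond counting error. In progenitor-like cells Chd4 was at 351 CPM in 36 cells with and 439 CPM in 43 cells without one. Chd3 was at 137 and 87.2 CPM there, so that their ratio was 0.51 times as high (0.35 to 0.74). In differentiating-like cells Chd4 went the other way, at 337 CPM with and 227 CPM without one (ratio 1.49, 1.04 to 2.20). The 29 cells without one, however, held only 32 Chd4 UMIs in all. Their median was 3736 UMIs per cell, against 15313.5 in the 104 cells with one. The part of depth in this contrast was not tested. The ratio of Chd4 to Chd3 was 1.35 times as high in SSC-like (0.53 to 3.02) and 0.92 times in differentiating-like cells (0.41 to 1.92). In all germ cells together that ratio was 0.85 times as high, an interval that included no difference (0.65 to 1.11). In peritubular myoid-like cells it was 3.41 times as high (1.51 to 7.90) from 15 cells with and 79 without one. Stromal-like cells with one had more Hdac2 (ratio 2.06, 1.36 to 3.08), Rbbp4 (1.60, 1.08 to 2.32) and Mbd3 (1.37, 1.01 to 1.83). Differentiating-like cells with one had less Hdac2 (ratio 0.68, 0.48 to 0.996), between the same sets of unequal depth. Sertoli-like cells with one had less Mta3 (0.61, 0.37 to 0.99). Peritubular myoid-like cells with one had less Chd3 (0.45, 0.23 to 0.80) and more Rbbp4 (1.90, 1.08 to 3.26). All 10 genes and 3 pairs were compared in each of these classes. Most intervals included no difference, and none was adjusted for the number of contrasts.

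The other genes around the complex were read as 4 lists of 44 genes, of which 36 had 100 UMIs in germ and somatic cells. In germ over somatic cells 11 were higher and 10 were lower, with a median log2 ratio of -0.13, beside 35.1% higher and 31.6% lower and a median of 0.12 over all genes. Of the other NuRD subunits 1 was higher and 1 lower of 4 tested, of the proteins that bind NuRD 2 and 2 of 5, of the other class I deacetylase complexes 7 and 6 of 21, and of the other CHD remodellers 1 and 1 of 6. The greatest ratio was that of Sall4, a germ cell zinc finger protein that binds NuRD, with 445 UMIs in germ and 6 in somatic cells (log2 ratio 6.16, 5.03 to 7.62). Rcor2, a CoREST corepressor, came next with 249 and 16 UMIs (log2 ratio 3.91). Its paralog Rcor3 was the lowest, with 11 and 125 UMIs (log2 ratio -3.56), followed by the remodeller Chd9 with 12 and 107 UMIs (log2 ratio -3.21).

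Between germ cell stages fewer of these genes could be tested. In SSC-like over differentiating-like cells 3 of 22 were higher and 4 lower, beside 10.1% and 14.2% of all genes. Arid4a and Sin3b, both of the SIN3 complex, marked the 2 ends, with Arid4a at 48.3 and 12.6 CPM (log2 ratio 1.93, 1.26 to 2.68) and Sin3b at 234 and 471 CPM (log2 ratio -1.01, -1.17 to -0.85). Hdac3, another class I deacetylase, was at 40.5 and 72.7 CPM. In progenitor-like over differentiating-like cells 3 of 20 were higher, led by Sall4 (log2 ratio 1.14) and Suds3 (0.87), and 5 were lower, led by Sin3b (-1.12) and Gps2 (-0.79), beside 10.2% and 23.9% of all genes. In SSC-like over progenitor-like cells 1 of 24 was higher, Arid4a (log2 ratio 1.08), and 2 were lower, Kdm1a (-0.87), a histone demethylase, and Chd7 (-0.68), beside 9.79% and 4.08% of all genes. Cdk2ap1, a small NuRD subunit, had the second greatest ratio there (0.37) and did not pass the fold.

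The genes whose levels followed those of Chd4 most closely were taken from 4954 genes with at least 300 UMIs, by the Pearson correlation of log2(CPM + 1) over the 8 classes. They were Nudc (r = 0.996), the histone methyltransferase gene Suv39h1 (0.985) and Fam96b (0.983). Nudc ran from 672 CPM in SSC-like to 141 CPM in peritubular myoid-like cells. For Chd3 they were the tubulin acetyltransferase gene Atat1 (0.974), the netrin receptor gene Neo1 (0.967) and Kansl3 (0.963), which was at 97.6 CPM in Sertoli-like and 27.0 CPM in SSC-like cells. Chd4 and Chd3 themselves correlated with r = 0.10. Among the members Mta3 was most like Chd4 (0.91, rank 345) and Mta1 most like Chd3 (0.85, rank 113). The values of macrophage-like cells, however, rest on 12 Chd3 and 5 Mta1 UMIs, and r without that class was not computed. Mta3 in stromal-like, peritubular myoid-like and macrophage-like cells was at the low levels given above. The 8 classes share 1 library and its cell selection, and such values describe them only.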

How the data were processed

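Single-cell RNA sequencing (10x Chromium, version 2 chemistry) was analysed for 1 library. The authors aligned reads to mm10 with Cell Ranger 2.1.0 and deposited UMI counts per gene and barcode without normalization. The study's methods name a filter on doublets and low-quality cells within its own analysis. Whether empty droplets or doublets were removed before deposit is not given in the sources used here. Cells with at least 500 genes and under 10% mitochondrial UMIs were kept, and 4 of 970 barcodes called doublets by scrublet (scanpy 1.11.5, expected rate 0.01) were left out. With Seurat 5.3.0 in R 4.3.3, counts were log-normalized to 10000 UMIs and clustered on 14 principal components (resolution 0.5), then germ cells were clustered again. None of the 10 members was among the variable genes. Leaving out the members and pathway genes took the variable genes from 898 to 896 over all cells and from 899 to 897 in germ cells. A few genes of the pathway lists thus helped to form the classes between which those lists were compared. Clusters were named by marker lists through the difference in mean log-normalized level. The members, gene lists and naming rule were chosen with earlier results of these data known. All 10 members are named, and of the pathway lists the 2 greatest ratios in each direction, of which 1 gene is not reported here.

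UMIs were summed per class. Intervals are exact Poisson, binomial and conditional (ratio and odds ratio) 95% intervals from scipy 1.17.1 and cover counting error only. The ratio and odds ratio intervals were run on simulated Poisson sums. Those sums hold no spread between cells or mice, so that run checks the computation and not the fit to these cells. Levels are CPM and differences are ratios of CPM. Positions are from GENCODE on GRCm38, the assembly of mm10. Besides 19 alternatives, 2 were added after seeing the data.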

Additional observations from a re-analysis of the deposited data

How the results depend on the processing

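No paired analysis was possible because 1 library without replicates was analysed. Over the alternatives that gave a value, Chd4 against Chd3 kept its direction in germ over somatic cells (log2 shift 1.43 to 2.12) and in SSC-like over differentiating-like cells (1.10 to 1.36), as did Mta1 against Mta2 in the latter (-2.20 to -1.75). Alternatives that change only the denominator or the background minimum leave these shifts as they are. With cells clustered on one random share of the UMIs and measured on the other, the first 2 shifts were 2.12 and 1.22. Under that split the level ratio of Chd4 in SSC-like over progenitor-like cells moved from log2 0.37 to 0.21 (0.02 to 0.41). This was the lowest value over the alternatives, and the highest was 0.77. Clustering germ cells at a resolution of 0.3, or keeping cells under 5% mitochondrial UMIs, left no SSC-like class.

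In germ over somatic cells, the 5% limit, which left 67 germ cells, gave log2 shifts of 1.43 for Chd4 against Chd3, 0.15 for Hdac2 against Hdac1 (a reversal), -1.52 for Rbbp7 against Rbbp4, 1.13 for Mta3 against Mta2 and 0.97 for Mbd3 against Mbd2. Without stromal-like and peritubular myoid-like cells, Rbbp7 against Rbbp4 reversed to 0.85, Rbbp7 itself to 0.39, Hdac2 against Hdac1 was -0.62, and 2 members were higher and 1 was lower. As mean UMIs per cell, which moved the median of all genes from 0.12 to 1.05 and the split from 35.1% higher and 31.6% lower to 62.9% and 18.2%, 8 members were higher and 0 lower, and the log2 ratios of Chd3 (0.13) and Rbbp7 (0.24) turned positive.

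In SSC-like over progenitor-like cells, 1 member was higher with at least 200 genes per cell or without cells under 5000 UMIs, 2 with variable genes by vst or a resolution of 1.2, and 4 per cell (24.1% of all genes higher and 1.37% lower). There 0 were lower by vst, at 1.2 (where Mta1 reversed to 0.040), with 20 principal components, with the split counts, with germ cells taken by a UMI of Ddx4 or Dazl, and per cell. In SSC-like over differentiating-like cells, 1 was higher with no mitochondrial limit, with at least 1000 genes, with NuRD and pathway genes left out of the variable genes, without cells under 5000 UMIs and without the barcode richest in Hba-a1, and 0 with at least 200 genes or split counts; per cell 61.6% of all genes were higher and 1.45% lower. In progenitor-like over differentiating-like cells, 1 was higher by Ddx4 or Dazl and 3 per cell (33.2% of all genes higher and 6.07% lower); 2 were lower at a resolution of 0.3 or 1.2, 1 with UMIs outside mitochondrial and ribosomal protein genes or with median ratio scaling (15.7% of all genes higher and 14.8% lower), and 0 per cell. The causes were not tested. Of the level ratios of single genes and the remaining paralog shifts, 944 stayed within their interval and 76 moved out of it. Many of the 944 could not move, so their number is no measure of stability. Background minimums of 30 UMIs and of 1 UMI, with 52 values each, bear only on counts of genes. The denominator cancels in a paralog shift, and leaving out somatic classes cannot change a comparison of germ cell stages. The 4 called reversals are those named above. A level ratio was called reversed only if its main value passed the fold of 1.5, and a shift only if its interval excluded no difference. Sign changes of smaller ratios were thus not called. Per cell in SSC-like over differentiating-like cells, Chd3 (0.30), Mta3 (0.55), Hdac1 (0.41), Hdac2 (0.49), Rbbp4 (0.32) and Mbd3 (0.50) turned positive. The MTA genes, Mbd2 and the macrophage-like and T cell-like cells rest on few UMIs.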
